A study of Mus musculus with 6 samples.

Results

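The 10 genes described here encode beta-catenin (*Ctnnb1*) and proteins grouped with it in the Wnt pathway. The others are the secreted antagonists *Sfrp1*, *Sfrp2* and *Wif1*, the Dickkopf family gene *Dkk3* and the receptors *Fzd2*, *Lgr5* and *Lgr6*. The nuclear factor *Lef1* and the feedback regulator *Axin2* complete the list. The 10 genes were taken by symbol from the 30462 genes of the deposited table. They were measured by RNA sequencing of the cochlea (the spiral organ that senses sound) of mice at postnatal day 7. There were 3 libraries from mice labelled NEU4 KO (replicates 2, 4 and 5) and 3 from mice labelled WT (replicates 3, 4 and 5). *Neu4* encodes a sialidase, an enzyme that trims sialic acid from glycoproteins and glycolipids. The strain, the sex, the mutated part of *Neu4*, the cells in which it is lost and the number of animals behind each library are not given in the labels.

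In the canonical Wnt pathway a secreted Wnt protein binds a Frizzled receptor and an Lrp co-receptor at the cell surface. Without Wnt, a destruction complex built on Axin and Apc marks beta-catenin for degradation, and with Wnt, beta-catenin accumulates and acts with Tcf and Lef factors on target genes. Secreted antagonists bind Wnt or its receptors, and Lgr receptors bind R-spondins, which keep Frizzled receptors on the cell. In the cochlea the pathway is known for its part in the growth of the sensory epithelium, and *Lgr5* marks supporting cells that can act as hair cell progenitors in the newborn.

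*Ctnnb1* and *Sfrp2* were the only 2 of the 10 genes for which the 3 knockout libraries were all on one side of the 3 wild type libraries. Because the differences below turn on them, the 250 bases before their transcription starts are printed, with CpG dinucleotides in capitals (RefSeq, GRCm38.p6, plus strand for both genes, chr9:120933150-120933399 for *Ctnnb1* and chr3:83766071-83766320 for *Sfrp2*).
Ctnnb1: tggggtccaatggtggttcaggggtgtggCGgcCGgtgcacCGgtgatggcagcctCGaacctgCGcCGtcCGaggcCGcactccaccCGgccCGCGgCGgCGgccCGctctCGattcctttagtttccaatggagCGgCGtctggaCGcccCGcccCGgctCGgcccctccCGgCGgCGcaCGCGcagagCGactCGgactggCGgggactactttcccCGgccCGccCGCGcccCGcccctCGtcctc
Sfrp2: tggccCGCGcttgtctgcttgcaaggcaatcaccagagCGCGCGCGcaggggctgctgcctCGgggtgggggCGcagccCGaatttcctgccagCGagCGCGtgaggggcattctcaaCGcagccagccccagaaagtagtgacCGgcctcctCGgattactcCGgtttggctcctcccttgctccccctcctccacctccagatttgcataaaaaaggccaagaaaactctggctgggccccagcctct
The *Ctnnb1* window held 35 CpG dinucleotides at 74.8% G and C, and the *Sfrp2* window 16 at 63.6%, where the median of 32817 windows of the same length was 6 CpG at 52.4%. Windows with at least 35 CpG made up 2.98% of them and windows with at least 16 made up 25.4%. For 6 of the 10 genes (*Ctnnb1*, *Lgr6*, *Axin2*, *Lef1*, *Sfrp2* and *Wif1*) a window was matched, at the listed start nearest to that of the principal GENCODE transcript. *Ctnnb1* had 2 listed windows and *Lef1* 4, of which only the matched one is described. The matched window of *Ctnnb1* lies inside the span of the gene given below. The letters CTTTGAA or CTTTGAT, which Tcf and Lef factors can bind, were found on either strand in 0 of these 6 windows and in 7.48% of all windows, and the letters TATAAA on the strand of the gene in 0 of 6 and in 7.60%. These counts say only that the letters are not in these windows.

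The 10 genes were chosen by pathway, with the knockout against wild type differences of these same libraries in view. Their differences between the groups are therefore a description. Counts of these genes that pass the fit over all genes are given below, but they are no test of the 10 genes. Levels are in FPKM, fragments per kilobase of exon scaled to the size of the library, which is a level per length. Comparisons between genes depend on that length, which covers all annotated exons of a gene (10264 bp for *Lgr5* and 6851 bp for *Lgr6*). Differences are on the log2(FPKM + 1) scale, knockout minus wild type, and each is given with its standard error (SE) from a limma fit over the 14072 genes that reached 1 FPKM in 3 or more libraries. The scale understates the change of low genes. Values of single libraries are always given in the order knockout 2, 4 and 5, then wild type 3, 4 and 5.

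The totals recovered for the 6 libraries were 15170973 to 17192293 fragments. *Neu4* itself had 4 to 8 fragments per library in either group and did not check the labels, so directions below refer to libraries labelled knockout. By *Xist* and *Ddx3y*, knockout 2 and wild types 3 and 4 were male and the other libraries female, so each group held libraries of different animals. Between libraries of one sex in a group the labels name no separate animals, and p-values measure only the spread between these libraries, part of which may be technical. Inner ear genes were present in every library, with *Otor* of otic fibroblasts at 588 to 718 FPKM and the hair cell myosin gene *Myo7a* at 5.43 to 6.28, while *Slc26a5*, the motor protein gene of outer hair cells, was at 0.215 FPKM or less. The libraries also held much RNA of bone and cartilage, with *Ibsp* of osteoblasts at 2343.5 to 3452 FPKM and *Col2a1* of cartilage at 1634 to 2047. In such a mixture, fewer cells of a type and less RNA per cell cannot be told apart.

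All 10 genes were expressed, over a range of about 2 orders of magnitude in FPKM. Averaged over the 6 libraries, *Ctnnb1* was at 178 FPKM, above 98.8% of the genes tested. It was followed by *Wif1* (87.2), *Sfrp2* (58.8), *Dkk3* (36.7), *Fzd2* (30.9), *Sfrp1* (18.5), *Lgr6* (9.73), *Axin2* (8.08), *Lef1* (4.45) and *Lgr5* (1.60). In wild type, the values of *Wif1* overlapped those of *Sfrp2*, and the values of *Dkk3* overlapped those of *Fzd2*. In the knockout, *Sfrp2* overlapped *Dkk3*, and *Dkk3* overlapped *Fzd2*. The other neighbours in this order did not overlap within a group.

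**Figure D1:**
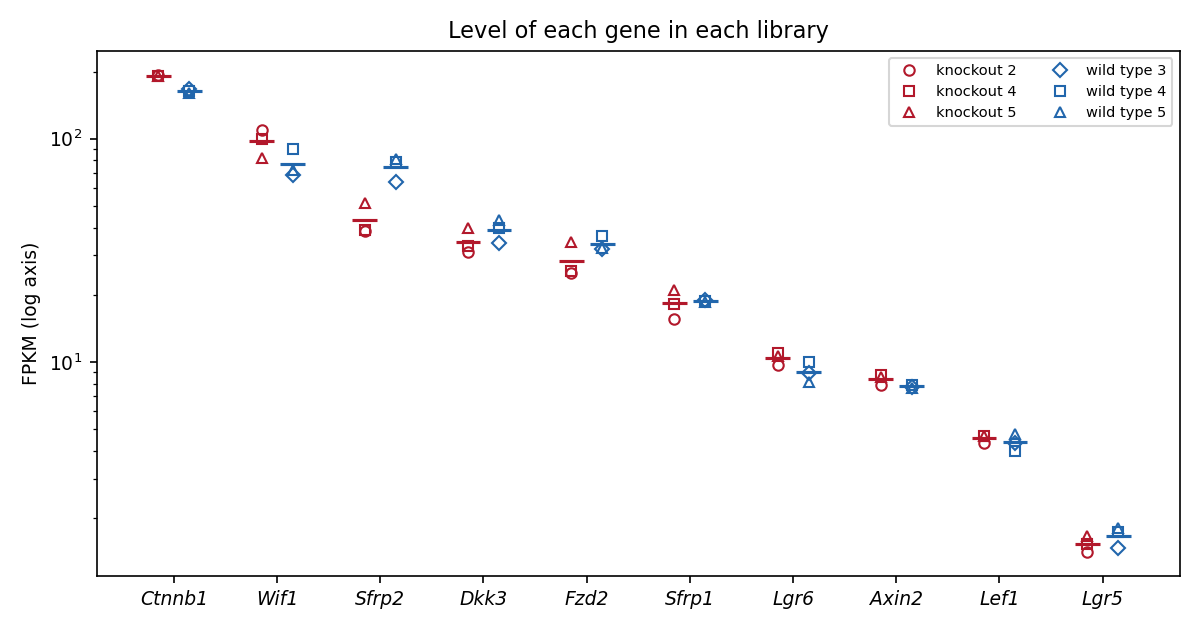
FPKM of the 10 genes (log axis) in each of the 6 libraries, with red symbols for the 3 knockout libraries, blue symbols for the 3 wild type libraries and bars at the group means. The groups are apart for *Ctnnb1* and *Sfrp2* and overlap for the other 8 genes.

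Of the 10 genes, 0 passed the limma test over all genes (Benjamini-Hochberg adjusted p under 0.05), against 0.334% of the genes tested (0.128% higher and 0.206% lower in the knockout). At an unadjusted p under 0.05 there were 4 of 10 (3 higher and 1 lower), against 17.6% of genes (10.6% higher and 6.99% lower). The count was 2 of 10, *Ctnnb1* and *Sfrp2*, with voom on recovered fragments (2.58% of genes) and with limma on genes that reached 5 FPKM in 3 libraries (1.27%), and 1 of 10, *Sfrp2*, without knockout 5 (0.746%). Groups did not overlap for 2 of 10, 1 in each direction, against 24.8% of the genes tested, 15.2% with the knockout higher and 9.54% with the knockout lower. Since the contrast was used to propose the genes, nothing is read from these counts. The median difference of the 10 genes was 0.00 on the log2 scale, beside 0.02 over all genes tested, and 5 values were above 0 and 5 below, where 56.9% of all genes were above 0.

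*Ctnnb1* encodes beta-catenin, which serves both as the transducer of Wnt signals and as a link between cadherins and the actin skeleton (ENSMUSG00000006932, chromosome 9, 120929216 to 120960507, plus strand, GRCm38). Its level was 194, 191 and 191 FPKM in the knockout and 167, 163 and 161 FPKM in wild type. All knockout libraries were above all wild type libraries, and within each group the values lay close together. The means were 192 ± 1.66 (SD, n = 3) against 164 ± 2.95 (SD, n = 3) FPKM, a ratio of 1.17, and the difference was 0.23 on the log2 scale (SE 0.037). The libraries of a group hardly differed for this gene. The coefficient of variation was 0.868% in the knockout and 1.80% in wild type, where counting error alone, from 13357 to 16772 fragments per library, gives 0.786% and 0.843%. The spread of *Ctnnb1* within groups on the log2 scale was larger than that of 0.746% of the genes tested, and than that of 1.18% of the 170 genes within 1.5-fold of its level. With median-ratio scaling of the libraries the difference was 0.20. Exons of *Ctnnb1* overlap those of *Ulk4* on the opposite strand, which was at 0.714 FPKM on average, and the microRNA gene *Mir7090* lies on the same strand within them, at 0.814 FPKM, and the labels do not say if fragments were assigned by strand.

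*Sfrp2* had the widest difference of the 10 genes. It encodes a secreted Frizzled-related protein, which carries a Frizzled-like domain that binds Wnt (ENSMUSG00000027996, chromosome 3, 83766321 to 83774316, plus strand). Its level was 38.6, 38.8 and 51.8 FPKM in the knockout and 63.8, 78.7 and 81.3 FPKM in wild type. All knockout libraries were below all wild type libraries, knockout 5 being the nearest to wild type. The means were 43.1 ± 7.54 against 74.6 ± 9.42 FPKM (SD, n = 3 each), a ratio of 0.577, and the difference was -0.78 on the log2 scale (SE 0.13). It was -0.92 without knockout 5. *Sfrp2* rested on 1385 to 2912 fragments per library, which gives a counting error of 2.58% in the knockout and 1.94% in wild type, while the coefficients of variation were 17.5% and 12.6%. A predicted gene on the opposite strand, Gm26771, shares exonic sequence with it and was at 0.301 FPKM.

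The paralogue *Sfrp1*, an antagonist of the same family (chromosome 8, 23411502 to 23449632, plus strand), did not show that pattern in its values. It was at 15.6, 18.2 and 20.96 FPKM in the knockout and at 18.9, 18.8 and 18.6 FPKM in wild type. The knockout values lay on both sides of the wild type values, which were almost equal. The difference was -0.05 (SE 0.094), and it was 0.05 without knockout 2 and -0.15 without knockout 5. The coefficient of variation was 14.6% in the knockout against 0.837% in wild type, the latter being below the 2.71% of counting error. The ratio of *Sfrp2* to *Sfrp1* was 2.47, 2.13 and 2.47 in the knockout and 3.37, 4.18 and 4.37 in wild type.

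*Wif1* encodes Wnt inhibitory factor, which binds Wnt proteins outside the cell (chromosome 10, 121033960 to 121100650, plus strand). Its level was 109.8, 99.8 and 82.0 FPKM in the knockout and 68.7, 90.3 and 72.5 FPKM in wild type. Knockouts 2 and 4 were above all wild type libraries, and knockout 5 lay below wild type 4. The means were 97.2 ± 14.1 and 77.2 ± 11.5 FPKM (SD, n = 3 each), and the difference was 0.33 (SE 0.13). It was 0.16 in the fit on the libraries numbered 4 and 5 with the replicate number as a block.

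*Dkk3* encodes a divergent member of the Dickkopf family (chromosome 7, 112116017 to 112159057, minus strand). It was at 30.9, 32.9 and 39.7 FPKM in the knockout and at 34.0, 39.8 and 43.1 FPKM in wild type. The groups overlapped through knockout 5 and wild type 3, and the difference was -0.17 (SE 0.11). It was -0.10 without knockout 2, and likewise when wild type 5 was left out. Leaving out wild type 3 gave -0.26 and leaving out knockout 5 gave -0.27. Summed over *Sfrp1*, *Sfrp2*, *Wif1* and *Dkk3*, the level was 195, 189.8 and 194 FPKM in the knockout and 185, 228 and 215 FPKM in wild type. The sums of these 4 genes overlapped between the groups, with *Wif1* and *Sfrp2* differing in opposite directions.

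Of the receptors, *Fzd2*, a Frizzled receptor for Wnt (chromosome 11, 102604396 to 102608058, plus strand), was at 24.9, 25.5 and 34.4 FPKM in the knockout and at 31.9, 36.7 and 32.3 FPKM in wild type. Knockouts 2 and 4 were below all wild type libraries, and knockout 5 was within the wild type range. The difference was -0.26 (SE 0.12), and -0.40 without knockout 5.

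*Lgr6* and *Lgr5* are receptors for R-spondins, and both mark sets of supporting cells in the young organ of Corti. *Lgr6* (chromosome 1, 134983301 to 135105276, minus strand) was at 9.70, 10.9 and 10.6 FPKM in the knockout and at 8.95, 10.001 and 8.12 FPKM in wild type. The groups overlapped through knockout 2 and wild type 4, and the difference was 0.19 (SE 0.080), or 0.13 without wild type 5. *Lgr5* (chromosome 10, 115450311 to 115587780, minus strand) was at 1.41, 1.52 and 1.66 FPKM in the knockout and at 1.47, 1.73 and 1.80 FPKM in wild type. This was the lowest of the 10 genes, with 241 to 306 fragments per library over 10264 bp of exons. The groups overlapped, with a difference of -0.08 (SE 0.091), and the coefficients of variation of 8.12% and 10.5% stood beside counting errors of 6.27% and 5.94%. The *Lgr5* difference was -0.04 without knockout 2 or without wild type 5 and -0.13 without wild type 3. *Lgr6* exceeded *Lgr5* in every library, by 6.88, 7.20 and 6.42 times in the knockout and by 6.09, 5.77 and 4.51 times in wild type.

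*Lef1* encodes a nuclear factor that binds DNA together with beta-catenin (chromosome 3, 131110471 to 131224356, plus strand). It was at 4.31, 4.67 and 4.64 FPKM in the knockout and at 4.33, 4.004 and 4.76 FPKM in wild type. The wild type values enclosed those of the knockout, and the difference was 0.05 (SE 0.071). The *Lef1* difference was -0.00 without wild type 4, 0.03 without knockout 4, 0.08 without knockout 2 and 0.10 without wild type 5. *Axin2* encodes a scaffold of the destruction complex and is widely used as a readout of canonical Wnt signalling (chromosome 11, 108920349 to 108950783, plus strand). It was at 7.86, 8.73 and 8.60 FPKM in the knockout and at 7.69, 7.91 and 7.67 FPKM in wild type. Knockout 2 lay below wild type 4 and the other knockout libraries above all wild type ones, with a difference of 0.10 (SE 0.055). *Axin2* and *Lef1* overlap predicted genes on the opposite strand, Gm11670 at 0.909 FPKM and Gm43352 at 0.192.

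**Figure D2:**
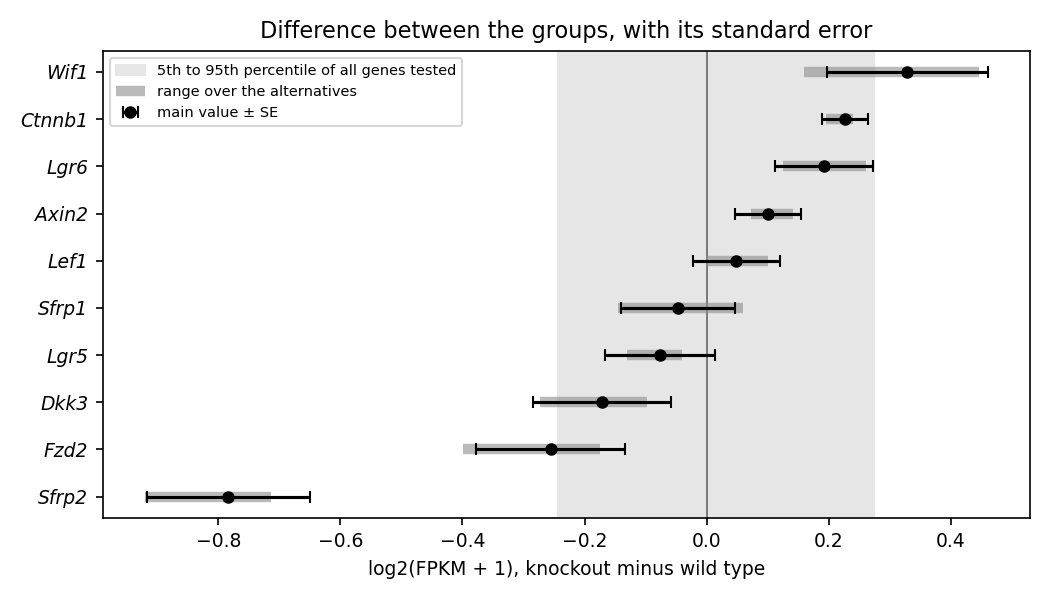
Difference between the group means on the log2(FPKM + 1) scale (knockout minus wild type) for each gene, with its standard error, its range over 14 alternative analyses (dark bars) and the 5th to 95th percentile of all 14072 genes tested (grey, -0.24 to 0.27). *Sfrp2* lies far below the grey band, *Fzd2* at its lower edge and *Wif1* above its upper edge, while *Ctnnb1* lies inside the band with a small error.

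The genes differed in their spread between libraries of one group. *Sfrp2*, *Wif1*, *Fzd2*, *Dkk3* and *Sfrp1* varied more within groups than 97.7%, 98.2%, 96.6%, 95.6% and 90.2% of genes within 1.5-fold of their level. *Ctnnb1*, *Axin2*, *Lgr5* and *Lef1* varied more than 1.18%, 20.1%, 22.7% and 34.8% of such genes. *Lgr6* lay between these sets, at 76.5%. Knockout 5 had the highest knockout value of *Sfrp1*, *Sfrp2*, *Dkk3*, *Fzd2* and *Lgr5* and the lowest of *Wif1*.

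Genes with the most similar pattern over the 6 libraries were sought for the 3 members of widest range, by the root mean square difference of log2(FPKM + 1) centred on each gene's mean, among 13887 genes. For *Sfrp2* they were *Fbln5*, a gene of elastic fibre assembly, *Rtl3* and the keratin gene *Krt19*, at 0.0457, 0.0698 and 0.0819. *Fbln5* was at 10.3, 10.4 and 14.5 FPKM in the knockout and at 17.3, 21.2 and 20.8 FPKM in wild type, so its libraries fell in nearly the same order. For *Wif1* they were *Gfap*, an intermediate filament gene of glia, *Rims4* and *Ccdc194* (0.0548, 0.0551 and 0.0631). For *Fzd2* they were *Ppl*, which encodes periplakin, the tight junction gene *Tjp3* and *Nit2* (0.0472, 0.0506 and 0.0532). *Rims4*, *Ppl* and *Tjp3* were low, at 0.989 to 2.09, 0.949 to 1.81 and 1.18 to 2.10 FPKM. The scale understates the change of such genes.

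**Figure D3:**
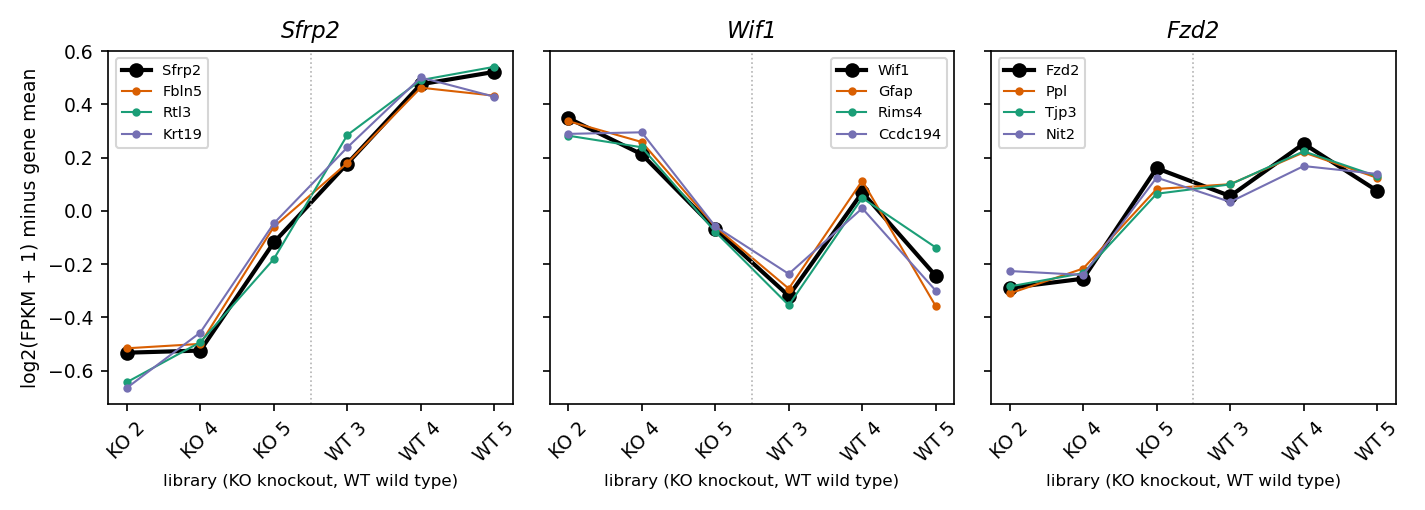
log2(FPKM + 1) minus each gene's mean over the 6 libraries for *Sfrp2*, *Wif1* and *Fzd2* (black) and the 3 genes with the most similar pattern (colours). Lines join values for legibility only, since the libraries have no order. Knockout 5 lies nearer to wild type than knockouts 2 and 4 do in the *Sfrp2* and *Fzd2* panels.

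Markers of several cell types differed between the groups along with these genes. Of 13 marker lists, the summed FPKM did not overlap between the groups for 9, of which 5 were higher and 4 lower in the knockout. Without the most abundant gene of each list, a check added after seeing the data, the count was 7, of which 5 were higher and 2 lower. Of the single genes tested, 24.8% did not overlap, and no such share was computed for sums over lists. The lists were chosen with earlier results of these data known, so nothing is read from these counts. Counts of genes within a list below are by group mean. Supporting cell markers summed to 258 to 283 FPKM in the knockout and 235 to 246 in wild type, with 6 of 9 genes higher, and *Hes5* and *Prox1* were under 1 FPKM in all libraries. *Sox2* went the other way, at 6.89, 8.19 and 7.98 FPKM in the knockout and 9.13, 11.1 and 8.21 in wild type, without overlap. *Fgfr3* was also lower by group mean, with overlapping groups. Osteoblast markers summed to 4048 to 5243 FPKM against 3742 to 4010, with 7 of 7 genes higher, but the sums without *Ibsp* overlapped. Otic fibroblast markers summed to 1208 to 1222 FPKM against 1010 to 1127, with 5 of 5 higher. Strial marginal cell markers (81.1 to 86.3 FPKM against 68.7 to 71.9) and neutrophil markers (77.4 to 135 against 26.4 to 66.3) were also higher, with 5 of 5 genes each, and 0 of the 80 markers of the 13 lists were at 0 in all libraries. Hair cell sums (52.7 to 60.7 FPKM against 43.9 to 54.3, not overlapping without *Pvalb*) and spiral ganglion sums (120.3 to 160.3 against 95.7 to 142) overlapped. The 5 lists with higher sums that did not overlap differed in the direction of *Ctnnb1*. The part of any of these lists in the *Ctnnb1* difference was not tested.

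Other lists were lower in the knockout, as *Sfrp2* was. Smooth muscle and pericyte markers summed to 66.9 to 89.2 FPKM in the knockout and 112 to 143 in wild type, with 3 of 5 genes lower and *Tagln* at 0.238 FPKM or less. The smooth muscle actin gene *Acta2* made up 57.0% to 72.0% of that sum, and the pericyte gene *Rgs5* was not lower, at 25.6, 24.1 and 27.1 FPKM in the knockout and 25.6, 23.9 and 23.5 FPKM in wild type. Adipocyte markers summed to 4.51 to 11.3 FPKM against 14.4 to 29.9, with 5 of 5 lower and *Lep* near 0. The sums of these lists stayed apart without *Acta2* and without *Fabp4*.

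Middle ear epithelium markers summed to 13.7 to 107 FPKM in the knockout against 401 to 756 in wild type, and this separation rested on the secreted airway protein gene *Bpifa1*. *Bpifa1* was at 0.0777, 8.34 and 93.3 FPKM in the knockout and at 336, 608 and 402 FPKM in wild type. Without it the sums were 13.6, 15.7 and 13.6 FPKM in the knockout and 64.6, 147 and 14.1 FPKM in wild type, so that wild type 5 lay within the knockout range. *Krt5* did not overlap, at 0.656, 0.134 and 2.67 FPKM in the knockout and 5.13, 7.15 and 5.55 in wild type. *Foxj1* did not overlap either, at 2.22, 2.95 and 2.97 FPKM against 4.23, 6.12 and 3.43. *Ltf* overlapped, at 10.4, 12.2 and 7.57 FPKM against 13.4, 23.1 and 4.08. By group mean, 0 of the 7 genes were higher in the knockout. Endothelial markers summed to 74.5 to 78.5 FPKM against 79.5 to 85.9, with 3 of 4 lower, and overlapped without *Cdh5*. Chondrocyte sums overlapped, at 3228 to 3865 FPKM in the knockout and 3444 to 3835 in wild type, and skeletal muscle sums ranged from 28.3 to 561 over all libraries. The part of these tissues in the *Sfrp2* difference was not tested.

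**Figure D4:**
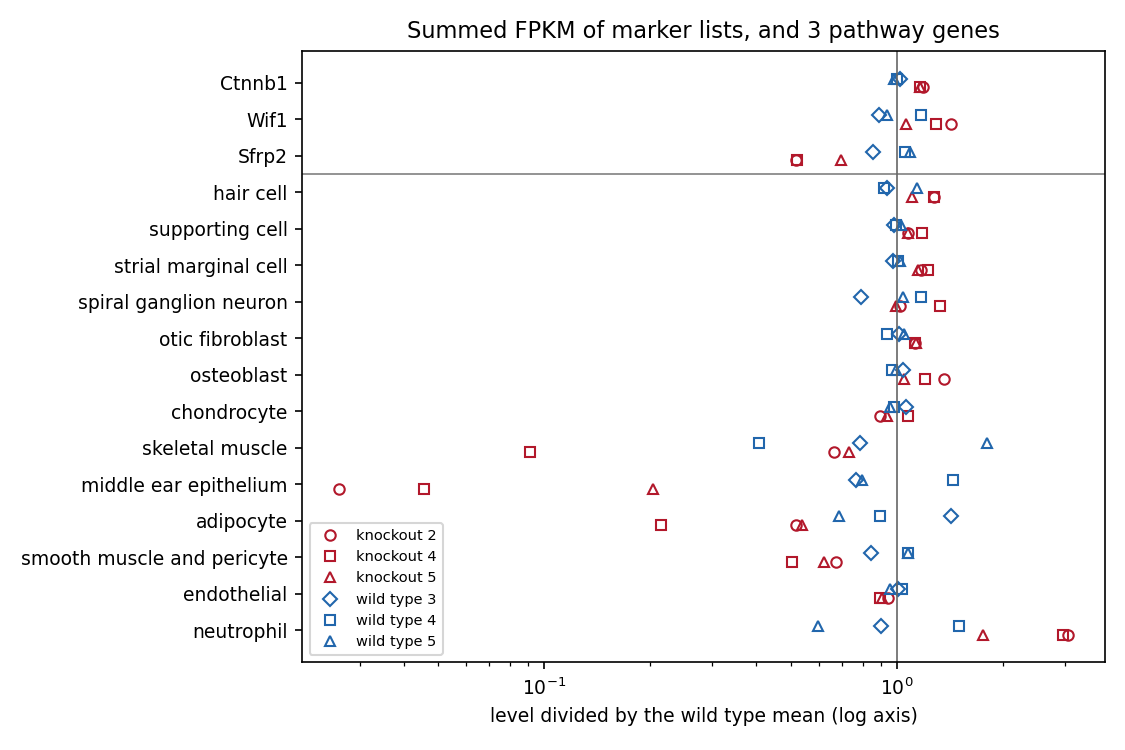
Level in each library divided by the wild type mean (log axis) for 13 summed marker lists and for *Sfrp2*, *Wif1* and *Ctnnb1*, with knockout libraries in red and wild type libraries in blue. Adipocyte and smooth muscle sums lie left of the wild type values in all 3 knockout libraries, and so does the middle ear epithelium sum, which overlaps without *Bpifa1*.

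The rest of the pathway was taken from a list of 112 genes in 10 role groups, of which 111 were in the table (*Dkk4* was not analysed here) and 98 were tested. Of these 98, 0 passed the limma test (adjusted p under 0.05), the smallest adjusted p being 0.0677 for *Lgr4* (limma). At an unadjusted p under 0.05 there were 25 (16 higher and 9 lower), which is 25.5% against 17.6% of all genes tested. The groups did not overlap for 35 genes (24 with the knockout higher and 11 lower), which is 35.7% against 24.8%. The median difference was 0.02, as over all genes tested, and the median absolute difference was 0.11 against 0.088. The list was chosen with earlier results of these data known, so nothing is read from these shares.

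The *Lgr4* receptor gene, the broadly expressed relative of *Lgr5* and *Lgr6*, was at 28.2, 29.0 and 30.6 FPKM in the knockout and at 24.2, 21.6 and 21.6 FPKM in wild type. All knockout libraries were above all wild type ones, with a difference of 0.37 (SE 0.058). With only genes of FPKM 5 or more in 3 libraries tested, its adjusted p was 0.0351 (limma). The *Lgr4* adjusted p was 0.157 with no filter, 0.104 with sex as a covariate and 0.0853 to 0.219 with 1 library left out (limma). The R-spondin gene *Rspo3*, at 7.20 ± 0.199 against 7.16 ± 0.856 FPKM (SD, n = 3 each), had overlapping groups.

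Among the ligands, 11 of 19 were tested, and *Wnt5a*, a ligand known mostly for non-canonical signalling, was the most abundant. It was at 21.2, 22.4 and 21.96 FPKM in the knockout and at 17.8, 19.0 and 18.2 FPKM in wild type (difference 0.24, SE 0.045, adjusted p = 0.0877, limma). *Wnt5b* was at 14.2 ± 0.986 against 14.5 ± 1.61 FPKM (SD, n = 3 each). Of the genes of ligand release and removal, the glypican genes *Gpc3* (73.3 ± 12.9 against 80.5 ± 4.74 FPKM) and *Gpc4* (33.8 ± 1.23 against 32.7 ± 2.30) overlapped between the groups. The same held for the receptor genes *Ptk7* (34.9 ± 1.52 against 37.3 ± 1.39 FPKM) and *Ryk* (36.9 ± 2.23 against 34.9 ± 1.76).

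Among the inhibitors, *Frzb*, another Frizzled-related antagonist, was at 75.4, 80.4 and 70.5 FPKM in the knockout and at 63.0, 63.8 and 64.7 FPKM in wild type. Its difference of 0.24 (SE 0.053, adjusted p = 0.116, limma) had the opposite sign to that of *Sfrp2*. *Sfrp5* was at 39.6 ± 4.04 against 38.9 ± 1.79 FPKM. In the destruction complex group, the kinase gene *Csnk1a1* was at 31.1 ± 0.553 against 27.8 ± 0.343 FPKM (difference 0.16, SE 0.037, adjusted p = 0.128, limma), and *Dvl3*, a Dishevelled gene, at 31.2 ± 0.510 against 32.6 ± 1.92 (SD, n = 3 each).

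Among the targets, *Ccn4*, a matricellular gene also known as a Wnt-induced gene, was at 52.0, 46.1 and 42.9 FPKM in the knockout and at 36.5, 34.7 and 30.6 FPKM in wild type. Its difference of 0.46 (SE 0.087) was the largest of the 98 genes and had an adjusted p of 0.0924 (limma), which was 0.0260 with sex as a covariate. The *Ccn4* adjusted p was 0.223 with no filter and 0.0787 to 0.225 with 1 library left out (limma). *Tnfrsf19* was at 35.3 ± 0.492 against 31.4 ± 0.755 FPKM (adjusted p = 0.125, limma). Of the 9 targets tested, 4 differences were above 0 and 5 below, with a median of -0.04. Of the nuclear partners, *Tcf7* was at 44.3 ± 2.56 against 40.1 ± 1.71 FPKM and the corepressor gene *Tle5* at 77.6 ± 3.16 against 80.6 ± 7.08 (SD, n = 3 each).

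The planar polarity gene *Scrib*, which encodes a scaffold of the cell cortex, was at 14.5, 15.7 and 16.0 FPKM in the knockout and at 19.5, 18.3 and 17.7 FPKM in wild type. Its difference was -0.25 (SE 0.056, adjusted p = 0.119, limma), and *Daam2* of the same group was at 18.1 ± 0.536 against 17.5 ± 0.253 FPKM. Among the cadherin partners of beta-catenin at junctions, *Cdh1* was at 34.4 ± 1.06 against 31.7 ± 1.30 FPKM and *Ctnna1*, which encodes alpha-catenin, at 43.5 ± 1.04 against 43.0 ± 1.11 (SD, n = 3 each). Voom on recovered fragments called 6 of the 98 genes, *Ccn4*, *Wnt5a*, *Gsk3b*, *Frzb* and *Lgr4* higher and *Scrib* lower (adjusted p 0.0134 to 0.0437), against 2.58% of all genes. *Gsk3b* was named after its values were seen.

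**Figure D5:**
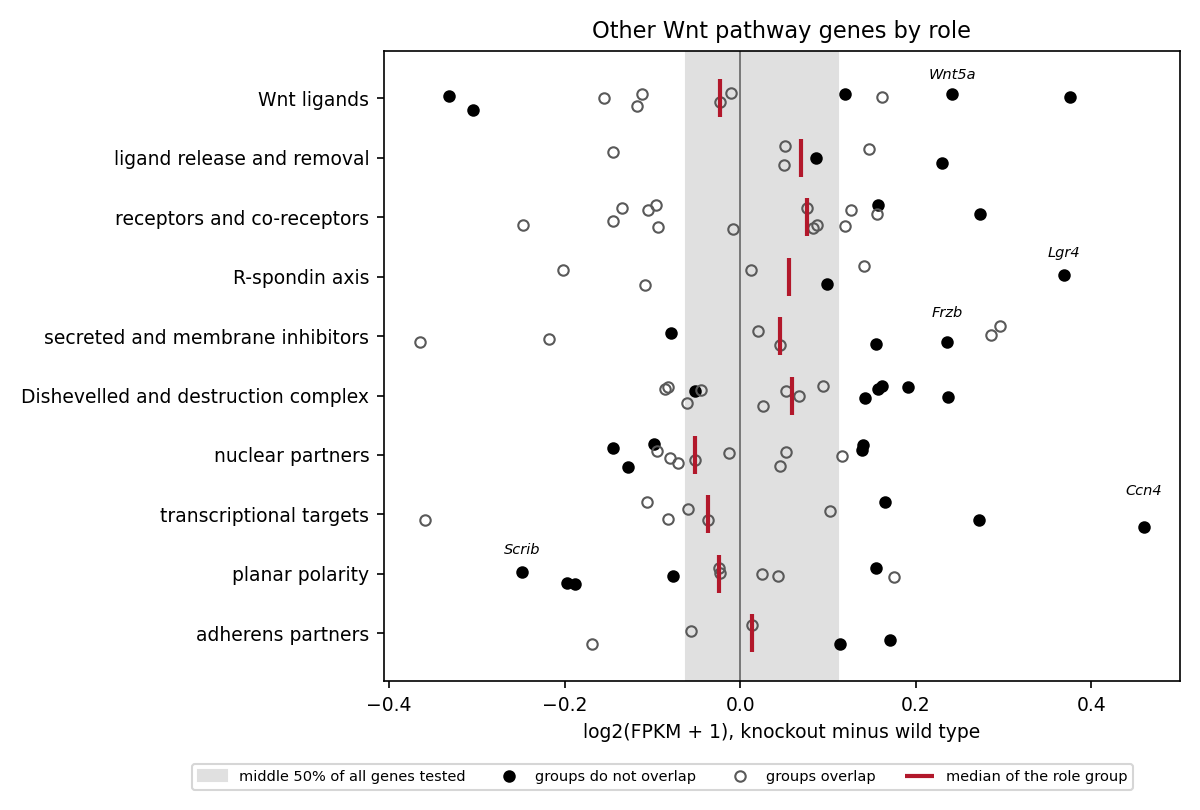
Difference on the log2(FPKM + 1) scale (knockout minus wild type) for the 98 other Wnt pathway genes tested, by role, with filled circles where the groups did not overlap, red bars at the median of each role group and the middle 50% of all genes tested in grey (-0.06 to 0.11). The medians of all 10 role groups lie within the grey band.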

How the data were processed

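RNA of 6 cochlea libraries was sequenced, 3 per group. The values are FPKM as deposited by the authors, in a single table with a column for every library. The genome build was GRCm38 (per the submitters' processing notes). For the aligner, counter and strand setting, nothing is given in the sources used here. FPKM times exon length (GENCODE M21) gave whole multiples of 1 step per library within 0.01 fragment for 98.1% to 98.2% of values above 0, which gave fragments and totals.

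The 14072 genes reaching 1 FPKM in 3 or more libraries entered a two-sided limma test (trended eBayes) of log2(FPKM + 1), and p-values were adjusted by Benjamini and Hochberg over all of them. The fit was tested on simulated data. The members and gene lists were chosen with earlier results of these data known. From each role group, up to 4 called genes or else the 2 most abundant were named. For the 3 members of widest range, the 3 genes of most similar pattern were named. Alternatives were pseudocounts of 0.1 and 0.5, filters, median-ratio scaling, sex as a covariate, a replicate block, voom and leaving out each library. The fits used limma 3.58.1 under R 4.3.3, the other steps pandas 2.3.3 and numpy 2.4.6 under Python 3.11.15, and the plots matplotlib 3.10.9.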

Additional observations from a re-analysis of the deposited data

How the results depend on the processing

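The *Ctnnb1* difference ranged from 0.20 (median-ratio scaling) to 0.24 over the 14 alternatives, and that of *Sfrp2* from -0.92 to -0.71. Leaving out 1 library moved the difference by over 1.5 times for 6 of the 10 genes, *Lgr5*, *Lgr6*, *Lef1*, *Sfrp1*, *Dkk3* and *Fzd2*. The sign changed 3 times, for *Sfrp1* with the replicate block (0.06) and without knockout 2 (0.05) and for *Lef1* without wild type 4 (-0.00). Of the 10 genes, *Ctnnb1* and *Sfrp2* passed with genes of FPKM 5 or more (1.27% of genes) and with voom (2.58%), and *Sfrp2* without knockout 5 (0.746%). The genes were proposed from this same contrast, so nothing is read from these counts.

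The count of called genes over the whole table was 47 (18 higher and 29 lower), and it was 19 with no filter, 103 with genes of FPKM 5 or more, 24 with sex as a covariate, 363 with voom and 12 to 105 with 1 library left out. With median-ratio scaling the split was 11 higher and 37 lower. Of the 98 other Wnt pathway genes 0 were called, against 1 (*Lgr4*) with genes of FPKM 5 or more, 1 (*Ccn4*) with sex as a covariate, 6 with voom and 0 with any 1 library left out. The causes of these changes were not tested, except that the stricter filter tests fewer genes (8123).

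The groups share the replicate numbers 4 and 5. The replicate block fit on these 4 libraries called 22 genes and 0 of the other Wnt pathway genes. The deviations of same-numbered libraries correlated at 0.1414 and 0.1498, and those of other pairs at -0.125 to 0.110. With 2 shared numbers this does not establish a pairing. *Lgr5*, at 241 to 306 fragments per library, had the fewest fragments of the 10 genes.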
